A study of Mus musculus with 8 samples.

Results

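The genes described here are 10 transcription factors and regulators that steer myeloid progenitors toward granulocytes or monocytes, namely Spi1, Gfi1, Irf8, Irf4, Klf4, Egr1, Egr2, Nr4a1, Id1 and Id2. They were taken by name from the 34199 genes in the count tables, and all 10 were found, Spi1 under its older symbol Sfpi1. RNA sequencing had been carried out on granulocyte-macrophage progenitors of the C57Bl/6 mouse (Lys-GFP-ER-HoxA9 cells) that are held in self-renewal by HOXA9 fused to an estrogen receptor domain (Hoxa9::ER). The fusion is active only while estradiol is present, and a reporter drives GFP from the lysozyme promoter. All groups grew in medium with stem cell factor and carried the fusion, so no group stands for an unmodified progenitor.

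There were 4 groups of 2 libraries. Uninduced cells were collected at 0 h from culture with 150 ng/ml estradiol. For CAF-1 OFF, 500 µM IPTG was given for 48 h to express an shRNA against Chaf1b, which encodes a subunit of the histone chaperone CAF-1. IPTG-treated control cells had 48 h of IPTG, and the labels give neither their vector nor their IPTG concentration. Estradiol is named for the general growth medium, and the methods of the study state that CAF-1 OFF cells were cultured with it. It is not named separately for IPTG-treated control cells. HOXA9 OFF cells were washed and kept without estradiol for 48 h. The labels do not say whether replicates were separate cultures. The supplement of the study speaks of RNA-seq tracks from independent sub-clones without tying them to these replicate numbers, so p-values measure only the spread between these libraries, which may be technical.

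PU.1, the product of Spi1, is an ETS factor needed for all myeloid cells, and its balance with other factors is known to shape the choice between both lineages. GFI1 represses monocyte genes in cells that become neutrophils, whereas IRF8, KLF4, EGR1, EGR2 and NR4A1 are known for their parts in monocyte and macrophage development. ID1 and ID2 lack a DNA-binding region and hold E proteins away from DNA.

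The cells had between 14044284 and 22423837 reads on genes per library, and 13080 genes passed the filter on low counts. All 6 progenitor markers checked, among them Kit, Cd34 and Flt3, were detected, with a summed level of 7663 to 12419 CPM (read counts of a library scaled to the same total in all libraries) outside HOXA9 OFF and of 5150 and 3626 CPM in HOXA9 OFF cells. Most of this sum was Mpo, at 6449 and 3988 CPM in uninduced and 3625 and 2559 CPM in HOXA9 OFF cells, which was not called (edgeR FDR 0.0506), while Kit, Cd34, Flt3 and Myb were called lower there and Ms4a3 was called higher, by 1.19 on the log2 scale (edgeR FDR 0.0117). Of 5 T and NK cell markers, 4 had no reads in any library. Chaf1b lay at 96.8 and 100.3 CPM for uninduced, 95.1 and 101.7 for IPTG-treated control, 18.7 and 9.72 for CAF-1 OFF, and 48.3 and 41.0 for HOXA9 OFF libraries. IPTG-treated control replicate 1 stood apart, with 14.6% of reads outside any gene against 5.30% to 7.79% in the other libraries.

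All 10 factors passed the filter on low counts. Irf4 and Klf4 did not reach its cutoff of 0.516 CPM in both uninduced libraries. After HOXA9 inactivation all 10 changed: 9 were higher and Gfi1 was lower, where 47.2% of all tested genes were called. After CAF-1 depletion 2 changed, Gfi1 and Id1, and both were higher, where 14.0% of all tested genes were called. With IPTG alone none was called, as for 0% of all tested genes. A change was called at a false discovery rate (FDR) under 0.05 by edgeR's quasi-likelihood test and Benjamini-Hochberg adjustment across the tested genes, together with a difference of at least 1.5-fold.

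**Figure D1:**
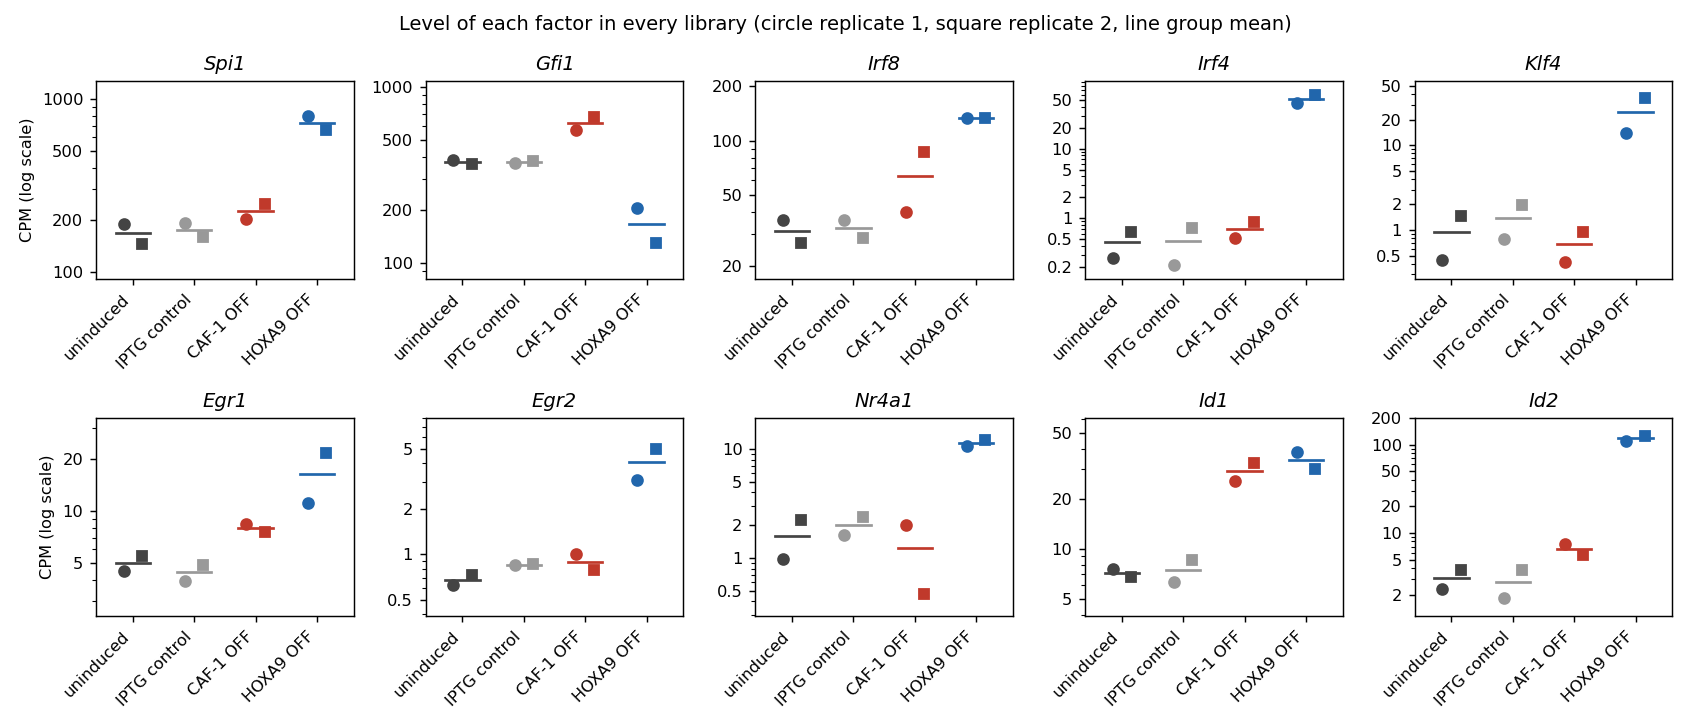
Level of each of the 10 factors in every library, in CPM on a logarithmic axis that differs between panels; circles are replicate 1, squares replicate 2 and lines the group means. Both HOXA9 OFF libraries lie above both uninduced libraries for 9 factors and below them for Gfi1, and for Id1 the CAF-1 OFF and HOXA9 OFF libraries overlap.

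In HOXA9 OFF against uninduced cells 25.2% of all tested genes were called as higher and 22.1% as lower, beside 9 of 10 factors higher and 1 lower. With scaling by library size only, where the median of all genes was -0.18, the split was 20.8% higher and 28.3% lower. The groups did not overlap for 10 of 10 factors and for 78.1% of all genes. For CAF-1 OFF against uninduced cells 10.5% of all genes were called as higher and 3.50% as lower, so that 2 of 10 factors is near the background share in the full set of libraries. The share called fell to 1.16% without uninduced replicate 1, 7.2% without uninduced replicate 2 and 2.19% without CAF-1 OFF replicate 2. The groups did not overlap for 7 of 10 factors and for 68.3% of all genes, also a similar share. The median log2 fold change of the 10 factors was 2.42 in HOXA9 OFF and 0.65 in CAF-1 OFF cells, where the medians of all genes were 0.01 in both.

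Promoter sequence is shown for the 4 factors with the largest log2 fold changes in HOXA9 OFF cells, to set the sequence beside the levels that follow. The windows are the bases before the gene start in RefSeq, in mouse build GRCm38, and each matched once in mm9, the build of the counts, whose coordinates are given. They run 5′ to 3′ on the gene's own strand, end at the gene start in GENCODE, and carry matches to the letters named below in capitals. The table of promoters held 7 of the 10 factors, not Spi1, Id1 or Egr1.
Irf4 (chr13:30840852-30841094, plus strand): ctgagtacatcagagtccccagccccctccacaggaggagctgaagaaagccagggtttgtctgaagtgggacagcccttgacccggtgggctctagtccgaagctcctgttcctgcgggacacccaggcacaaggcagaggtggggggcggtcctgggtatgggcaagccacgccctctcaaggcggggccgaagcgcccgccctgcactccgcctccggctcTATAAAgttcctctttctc
Id2 (chr12:25780958-25781207, minus strand): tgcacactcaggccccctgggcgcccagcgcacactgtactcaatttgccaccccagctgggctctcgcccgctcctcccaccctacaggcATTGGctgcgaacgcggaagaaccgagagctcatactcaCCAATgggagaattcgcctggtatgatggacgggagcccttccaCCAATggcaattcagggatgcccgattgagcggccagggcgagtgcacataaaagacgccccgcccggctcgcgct
Klf4 (chr4:55545348-55545597, minus strand): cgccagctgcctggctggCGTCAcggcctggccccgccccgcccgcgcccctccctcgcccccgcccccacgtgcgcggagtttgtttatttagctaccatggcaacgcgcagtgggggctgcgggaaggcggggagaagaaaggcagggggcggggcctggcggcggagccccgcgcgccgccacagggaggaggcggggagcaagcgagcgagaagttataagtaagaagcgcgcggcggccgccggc
Nr4a1 (chr15:101097027-101097276, plus strand): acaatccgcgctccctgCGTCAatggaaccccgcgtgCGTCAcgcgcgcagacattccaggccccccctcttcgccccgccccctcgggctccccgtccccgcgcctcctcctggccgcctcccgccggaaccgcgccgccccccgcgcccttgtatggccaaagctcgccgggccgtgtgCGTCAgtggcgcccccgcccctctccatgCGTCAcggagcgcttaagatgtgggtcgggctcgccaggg

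Of these, Irf4 held the TATA box letters TATAAA once, starting 26 bases before the RefSeq start, and 12.4% of all 32851 promoter windows of 250 bases held them. The Id2 window held the CCAAT box letters CCAAT 3 times, a count reached in 2.79% of windows. Klf4 held CGTCA, the core of the cAMP response element, once, as 17.8% of windows did at least once, and Nr4a1 held it 4 times, a count reached in 0.137% of windows. Irf8, which is not printed, held 1 CCAAT box and 1 TATA box.

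Other letters searched on both strands were the full element TGACGTCA (1.55% of windows), the ETS sites CCGGAAG (6.91%) and GAGGAAG (10.6%), the C/EBP site TTGCNNAA (9.56%), the EGR site GCGTGGGCG (0.536%) and the composite ETS-IRF site (2.3%). The only match among the 7 factors was 1 C/EBP site in Gfi1. It starts 143 bases before the RefSeq start of Gfi1, whose window reaches 231 bases into the GENCODE gene. The match thus lies inside that gene. The full response element contains its core, and the ETS-IRF letters can overlap an ETS site. The core, CCAAT and TATAAA were added after the windows had been read, and a match is a description of the letters only.

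Spi1 encodes PU.1 and lies on chromosome 2 (chr2:90922547-90955913 in mm9). Its level was 188.9 and 144.6 CPM for uninduced, 191.5 and 158.7 for IPTG-treated control, 201.7 and 247.3 for CAF-1 OFF, and 795.6 and 662.1 for HOXA9 OFF libraries. Both HOXA9 OFF libraries were far above the other 6, and the CAF-1 OFF libraries lay just above both control groups. In HOXA9 OFF against uninduced cells Spi1 rose by a log2 fold change of 2.13 ± 0.19 (SE; edgeR FDR 6.46e-05), or 4.37-fold. The difference in CAF-1 OFF cells was 0.43 ± 0.18 on the log2 scale and was not called (edgeR FDR 0.127).

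Gfi1, the repressor of monocyte genes on chromosome 5 (chr5:108145674-108155056), ran the other way. Its level was 387.8 and 365.4 CPM for uninduced, 370.8 and 382.0 for IPTG-treated control, 569.2 and 676.5 for CAF-1 OFF, and 206.5 and 129.9 for HOXA9 OFF libraries. Both CAF-1 OFF libraries lay above and both HOXA9 OFF libraries below the 4 control libraries, which overlapped one another. Gfi1 fell by 1.16 ± 0.21 on the log2 scale in HOXA9 OFF cells (edgeR FDR 0.00192), or 2.24-fold. In CAF-1 OFF cells it rose by 0.73 ± 0.20 against uninduced cells (edgeR FDR 0.0422) and by 0.73 ± 0.20 against IPTG-treated control cells (edgeR FDR 0.0455).

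The rise of Gfi1 in CAF-1 OFF cells was close to the threshold. Against uninduced cells the call was lost without uninduced replicate 1 (edgeR FDR 0.151) or 2 (0.162), CAF-1 OFF replicate 1 (0.0837) or 2 (0.238), and IPTG-treated control replicate 1 (0.0762) or 2 (0.0711). Against IPTG-treated control cells it was lost without the same libraries, with edgeR FDRs of 0.0733 and 0.0778 for the uninduced, 0.0887 and 0.252 for the CAF-1 OFF and 0.186 and 0.166 for the IPTG-treated control replicates 1 and 2. The log2 fold change stayed between 0.58 and 0.83 in all of these. Exons of A430072P03Rik, on the opposite strand, overlap those of Gfi1, and the strand setting of the counting is not stated. That gene had 276 and 255 reads in uninduced, 157 and 164 in IPTG-treated control, 357 and 488 in CAF-1 OFF, and 160 and 123 in HOXA9 OFF libraries, and its part in the counts of Gfi1 was not tested.

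Irf8 (chr8:123260258-123280594) is the interferon regulatory factor that directs progenitors toward monocytes. Its level was 36.0 and 27.0 CPM for uninduced, 36.1 and 28.8 for IPTG-treated control, 39.9 and 86.7 for CAF-1 OFF, and 134.0 and 132.9 for HOXA9 OFF libraries. The HOXA9 OFF libraries were the highest, and the CAF-1 OFF libraries differed from each other more than those of any other group. Irf8 rose by 2.08 ± 0.34 on the log2 scale in HOXA9 OFF cells (edgeR FDR 0.00124). In CAF-1 OFF cells the difference was 1.01 ± 0.33 and was not called (edgeR FDR 0.0665), whereas DESeq2 called it (adjusted p = 0.00881). Without CAF-1 OFF replicate 2 the difference was 0.32 (edgeR FDR 0.422). Without CAF-1 OFF replicate 1 the difference was 1.44 and was called (edgeR FDR 0.0137), and with no filter on low counts it was called at 0.98 (edgeR FDR 0.0295).

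Irf4 (chr13:30841095-30858796), a relative of Irf8 with parts in lymphocytes and macrophages, was close to silent outside HOXA9 OFF cells. Its level was 0.267 and 0.642 CPM for uninduced, 0.212 and 0.736 for IPTG-treated control, 0.526 and 0.889 for CAF-1 OFF, and 46.1 and 58.8 for HOXA9 OFF libraries. Every library outside HOXA9 OFF was below 1 CPM and the CAF-1 OFF libraries overlapped both control groups. The rise in HOXA9 OFF cells was the largest of the 10, at 6.82 ± 0.50 on the log2 scale (edgeR FDR 3.38e-05), and 7.56 without uninduced replicate 2. A level of 3 counts, taken as the floor, was 0.134 and 0.128 CPM in the uninduced libraries, and such floors cover counting error only.

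Klf4 (chr4:55540013-55545347), a zinc finger factor of the monocyte lineage, also started low. Its level was 0.445 and 1.45 CPM for uninduced, 0.777 and 1.96 for IPTG-treated control, 0.421 and 0.941 for CAF-1 OFF, and 13.7 and 35.5 for HOXA9 OFF libraries. The HOXA9 OFF libraries were the highest but differed widely, and the other 3 groups overlapped. Klf4 rose by 4.68 ± 0.75 on the log2 scale in HOXA9 OFF cells (edgeR FDR 0.00116). The rise stayed called but was 4.08 without uninduced replicate 1, 5.75 without uninduced replicate 2 and 3.84 without HOXA9 OFF replicate 2. In CAF-1 OFF cells the difference was -0.48, with a 95% interval from -2.33 to 1.37 that leaves room for a change in either direction. With a replicate block Klf4 was called lower in CAF-1 OFF than in IPTG-treated control cells (log2 difference -0.99, edgeR FDR 0.0496), where without the block it was not called.

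Egr1, Egr2 and Nr4a1 belong to the genes that growth factor signals switch on within minutes. Egr1 (chr18:35020861-35024638) had 4.50 and 5.48 CPM for uninduced, 3.96 and 4.91 for IPTG-treated control, 8.37 and 7.58 for CAF-1 OFF, and 11.2 and 21.6 for HOXA9 OFF libraries. Egr2 (chr10:66998223-67004936), which with EGR1 favours macrophages and opposes neutrophil genes, had 0.623 and 0.727 CPM for uninduced, 0.848 and 0.859 for IPTG-treated control, 1.00 and 0.784 for CAF-1 OFF, and 3.09 and 5.01 for HOXA9 OFF libraries. For both genes replicate 2 of HOXA9 OFF was the highest library, and neither HOXA9 OFF library overlapped any other group.

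Nr4a1 (chr15:101097277-101105223), an orphan nuclear receptor needed for patrolling monocytes, had 0.979 and 2.22 CPM for uninduced, 1.63 and 2.39 for IPTG-treated control, 2.00 and 0.470 for CAF-1 OFF, and 10.7 and 12.1 for HOXA9 OFF libraries. The CAF-1 OFF libraries overlapped the uninduced libraries and differed widely, and both HOXA9 OFF libraries were above all others. In HOXA9 OFF cells the rise was 1.72 ± 0.33 for Egr1 (edgeR FDR 0.00287), 2.57 ± 0.40 for Egr2 (edgeR FDR 0.000971) and 2.83 ± 0.62 for Nr4a1 (edgeR FDR 0.00574) on the log2 scale. Without uninduced replicate 2 the rise of Nr4a1 was 3.52. None of these 3 genes was called in CAF-1 OFF cells, where the log2 differences were 0.68 (95% interval -0.08 to 1.43), 0.40 (-0.55 to 1.35) and -0.38 (-1.86 to 1.11). Exons of Gm17507 overlap Egr1 on the opposite strand, but that gene had 0 reads in every library.

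Id1 (chr2:152561987-152563146), an inhibitor of E proteins, was the factor with the largest change in CAF-1 OFF cells. Its level was 7.57 and 6.76 CPM for uninduced, 6.29 and 8.53 for IPTG-treated control, 25.6 and 32.7 for CAF-1 OFF, and 38.4 and 30.4 for HOXA9 OFF libraries. The CAF-1 OFF and HOXA9 OFF libraries overlapped each other and lay above all 4 control libraries. Id1 rose by 2.03 ± 0.22 on the log2 scale in CAF-1 OFF cells against uninduced cells (edgeR FDR 0.00316) and by 1.97 ± 0.22 against IPTG-treated control cells (edgeR FDR 0.004). In HOXA9 OFF cells the rise was 2.26 ± 0.22 (edgeR FDR 0.000109). Over 15 alternative settings the rise in CAF-1 OFF against uninduced cells stayed between 1.82 and 2.17.

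Id2 (chr12:25778666-25780957), the relative of Id1 known from dendritic and innate lymphoid cells, was at 2.31 and 3.81 CPM for uninduced, 1.84 and 3.80 for IPTG-treated control, 7.42 and 5.70 for CAF-1 OFF, and 110.2 and 125.8 for HOXA9 OFF libraries. The 3 levels did not overlap: control libraries lowest, CAF-1 OFF between, HOXA9 OFF far above. The rise in HOXA9 OFF cells was 5.26 ± 0.35 on the log2 scale (edgeR FDR 2.44e-05). The difference in CAF-1 OFF cells was 1.10 ± 0.33 against uninduced cells (edgeR FDR 0.0533) and 1.20 ± 0.35 against IPTG-treated control cells (edgeR FDR 0.0509), just short of a call, while DESeq2 called both (adjusted p = 0.00536 and 0.00342). Against uninduced cells edgeR also called it without IPTG-treated control replicate 1 (FDR 0.0407) or 2 (0.0393) or HOXA9 OFF replicate 2 (0.0488). Against IPTG-treated control cells it did so without HOXA9 OFF replicate 1 (FDR 0.0487) or 2 (0.0466). With no filter on low counts edgeR called Id2 against both (FDR 0.0260 and 0.0226), and so it did with a replicate block (log2 differences 1.13 and 1.24, FDR 0.0334 and 0.0330). In a fit with DESeq2 size factors it was called against IPTG-treated control cells (FDR 0.0499). Leaving out 1 library at a time gave differences of 0.78 to 1.48 against uninduced cells (highest FDR 0.251) and of 0.77 without IPTG-treated control replicate 1 (FDR 0.207) to 1.83 without replicate 2 (FDR 0.0688) against IPTG-treated control cells.

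**Figure D2:**
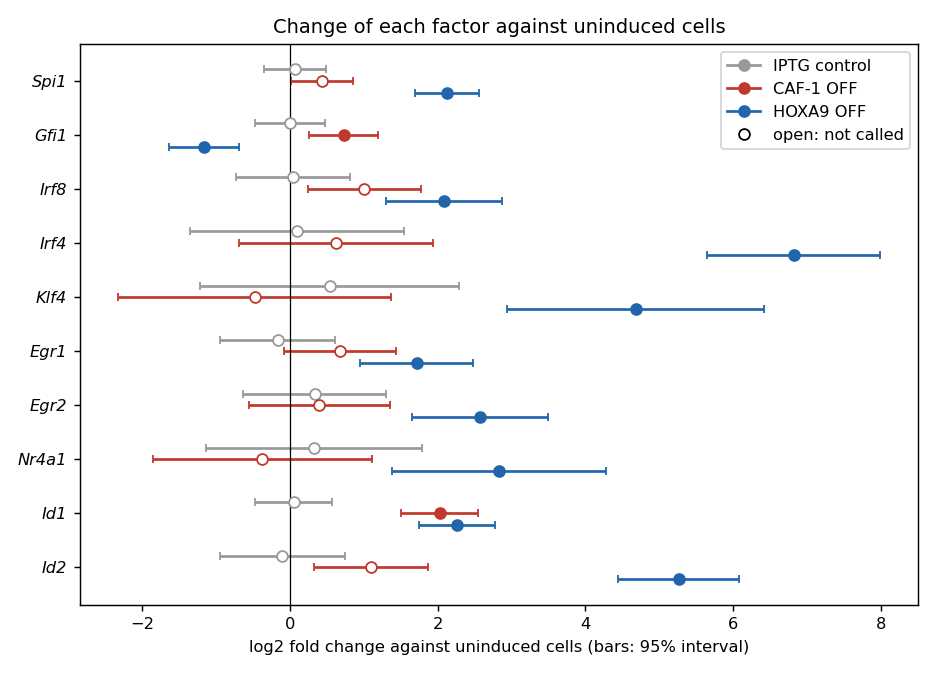
Log2 fold change of each factor against uninduced cells in IPTG-treated control (grey), CAF-1 OFF (red) and HOXA9 OFF cells (blue); bars are 95% intervals and open points were not called. The HOXA9 OFF points run from -1.16 for Gfi1 to 6.82 for Irf4, and the filled CAF-1 OFF points are Gfi1 and Id1.

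No factor was called in IPTG-treated control against uninduced cells. By edgeR 0 of 10 were called, 0 had an unadjusted p under 0.05, and DESeq2 called 0. Among all genes edgeR called 0% and DESeq2 called 5 genes, with 100 genes at an unadjusted edgeR p under 0.05. The groups did not overlap for 1 factor, Egr2, against 18.3% of all genes, and the median log2 difference of the 10 factors was 0.06. Against IPTG-treated control cells, CAF-1 OFF cells again had Gfi1 and Id1 called, 2 of 10 where 12.8% of all genes were called, 9.56% as higher and 3.20% as lower. The share of all genes called was 2.3% without IPTG-treated control replicate 1, 1.5% without replicate 2 and 1.84% without CAF-1 OFF replicate 2. The groups did not overlap for 6 of 10 factors and for 68.9% of all genes. Egr1 was not called there (log2 difference 0.84, edgeR FDR 0.114), although it was called without HOXA9 OFF replicate 1 (FDR 0.0356) or 2 (0.0416).

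A direct comparison of depleted and estradiol-deprived cells asked which factors differed in level between them. Chaf1b was also lower without estradiol, at 48.3 and 41.0 CPM against 96.8 and 100.3 CPM in uninduced libraries. The paper likewise reports a strong fall of both chaperone subunits, as proteins, once estradiol was removed. The comparison thus cannot separate chaperone loss from HOXA9 loss, and the part of each was not tested. Gfi1 was higher in CAF-1 OFF cells by 1.89 ± 0.21 on the log2 scale (edgeR FDR 0.000264), or 3.70-fold. Spi1, Irf8, Irf4, Klf4, Egr1, Egr2, Nr4a1 and Id2 were lower, with log2 differences from -1.04 for Egr1 to -6.20 for Irf4. Leaving out 1 CAF-1 OFF or HOXA9 OFF library moved 3 of them by over 1.5-fold while they stayed called, to -1.74 for Irf8 without CAF-1 OFF replicate 2, to -4.58 and -2.51 for Nr4a1 without CAF-1 OFF replicates 1 and 2, and to -5.85 and -4.32 for Klf4 without CAF-1 OFF replicate 2 and HOXA9 OFF replicate 2. Thus 9 of 10 factors were called and 9 did not overlap, where 43.5% of all genes were called, 22.2% as higher and 21.4% as lower, and 78.2% did not overlap. With library size only, where the median of all genes was 0.27, the split was 30.2% higher and 15.8% lower.

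Id1 was the exception. Its difference between CAF-1 OFF and HOXA9 OFF cells was -0.24 ± 0.21 on the log2 scale (edgeR FDR 0.373), with a 95% interval from -0.72 to 0.25, so a difference of up to that size cannot be told from none. Id2 by contrast was 18.0-fold lower in CAF-1 OFF cells (log2 difference -4.17 ± 0.33, edgeR FDR 7.15e-05). The calls of Irf8 (edgeR FDR 0.0249) and Egr1 (edgeR FDR 0.0269) were the closest to the threshold. Irf8 lost its call without CAF-1 OFF replicate 1 (FDR 0.0602, with a difference of -0.62) or HOXA9 OFF replicate 1 (0.0544), and Egr1 without CAF-1 OFF replicate 1 (0.0849) or 2 (0.117) or HOXA9 OFF replicate 2 (0.186, with a difference of -0.49). Both also lost it with scaling by library size only (edgeR FDR 0.0531 for Irf8 and 0.0689 for Egr1) and in a fit of the libraries of these 2 groups alone (0.0691 and 0.0716).

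Levels of different factors were compared per kilobase of merged exons. In uninduced cells Gfi1 was the highest at 115.9 ± 4.9 CPM per kb (SD, n = 2), followed by Spi1 at 61.9 ± 11.6 CPM per kb. Id1 (6.17 ± 0.49), Irf8 (4.46 ± 0.90) and Id2 (2.41 ± 0.83 CPM per kb) came next, and Irf4 was the lowest at 0.0964 ± 0.0562 CPM per kb. The ranges of Id1 and Irf8 did not overlap, nor did those of Irf8 and Id2. The place of Irf8 rests on its merged exons, which cover 7055 bases against 1160 for Id1. By CPM alone Irf8 lay above Id1, at 36.0 and 27.0 against 7.57 and 6.76 CPM. The annotation used for the counts is not given. Klf4 (0.310 ± 0.233 CPM per kb) overlapped both its neighbours, Nr4a1 and Egr2.

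In HOXA9 OFF cells the order was different. Spi1 was the highest at 270.4 ± 35.0 CPM per kb, Id2 came next at 92.9 ± 8.7, ahead of Gfi1 at 51.8 ± 16.7 CPM per kb. Id1 followed at 29.6 ± 4.9, Irf8 at 18.9 ± 0.1 and Irf4 at 11.1 ± 1.9 CPM per kb, and the place of Irf8 again rests on its exon length. Klf4, Egr1 and Nr4a1 came next, with each of these factors overlapping the one before it, and the lowest was Egr2 at 1.19 ± 0.40 CPM per kb. By their means the 7 highest factors of CAF-1 OFF cells stood in the uninduced order, with Gfi1 at 191.7 ± 23.4 and Spi1 at 83.3 ± 12.0 CPM per kb. The libraries of Irf8 and Id2 overlapped there, and those of Nr4a1 spanned Egr2 and overlapped Klf4.

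Ratios within a library do not depend on the scaling between libraries. Reads of Spi1 per read of Gfi1 numbered 0.487 and 0.396 for uninduced, 0.516 and 0.416 for IPTG-treated control, 0.354 and 0.366 for CAF-1 OFF, and 3.85 and 5.10 for HOXA9 OFF libraries. The ratio was thus below 1 in the first 6 libraries, lowest in CAF-1 OFF cells, and above 1 in HOXA9 OFF cells. Irf8 per Gfi1 was 0.0928 and 0.0739 for uninduced and 0.0974 and 0.0755 for IPTG-treated control libraries. It was 0.0701 and 0.128 for CAF-1 OFF and 0.649 and 1.02 for HOXA9 OFF libraries. Id2 per Id1 was 0.306 and 0.563 for uninduced and 0.292 and 0.446 for IPTG-treated control libraries. It was 0.290 and 0.174 for CAF-1 OFF and 2.87 and 4.14 for HOXA9 OFF libraries. Of the CAF-1 OFF and HOXA9 OFF ratios only that of Irf8 in CAF-1 OFF cells spanned the uninduced values. For Id2 per Id1 the higher CAF-1 OFF value, 0.290, lay next to the lower IPTG-treated control value, 0.292.

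**Figure D3:**
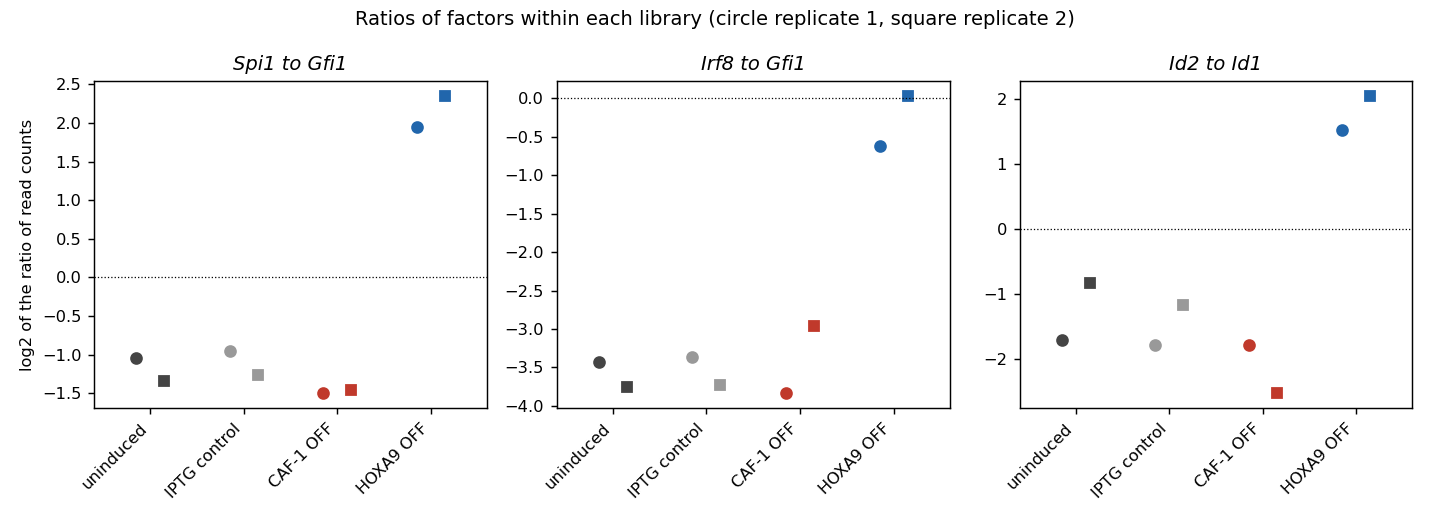
Log2 of the ratio of read counts of Spi1 to Gfi1, Irf8 to Gfi1 and Id2 to Id1 within each library; circles are replicate 1 and squares replicate 2, and the dotted line marks equal counts. The HOXA9 OFF libraries lie at 1.95 and 2.35 for Spi1 to Gfi1, where the other 6 libraries lie below 0.

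The HOXA9 OFF replicates differed in lineage genes. All 19 neutrophil genes checked, among them Ltf, Camp and S100a9, were higher in replicate 1, and their summed level was 27498 CPM in replicate 1 and 19920 CPM in replicate 2. Of 15 tested monocyte and macrophage genes, among them Csf1r and Ctss, 12 were higher in replicate 2, with summed levels of 5573 and 8792 CPM. Of the 10 factors, Spi1, Gfi1, Irf8 and Id1 were higher in replicate 1, and Irf4, Klf4, Egr1, Egr2, Nr4a1 and Id2 in replicate 2. Neutrophil genes were also more often higher in replicate 1 of the same-numbered control libraries, 16 of 19 in uninduced cells (summed level 12064 and 8204 CPM) and 15 of 19 in IPTG-treated control cells (11444 and 8533 CPM). Mpo stands in this list too and made up 6449 and 3988 CPM of the uninduced sum. Without it the sum was 5615 and 4216 CPM in uninduced and 23873 and 17360 CPM in HOXA9 OFF cells. Most of the uninduced remainder was Ctsg (3431 and 2800 CPM) and Prtn3 (1451 and 944 CPM). Ltf, Camp and S100a9 were each below 1 CPM in the uninduced libraries. Whether these libraries held different proportions of cell types was not tested. In bulk RNA, fewer cells of a type and less RNA per cell cannot be told apart.

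In CAF-1 OFF cells, replicate 2 had the higher level for 14 of 15 monocyte and macrophage genes and 18 of 19 neutrophil genes, and it also had the lower level of Chaf1b. Of the 10 factors, 6 were higher in that library (Spi1, Gfi1, Irf8, Irf4, Klf4 and Id1) and 4 were lower (Egr1, Egr2, Nr4a1 and Id2). The summed level of 5 mast cell and basophil markers was 1052 and 658.6 CPM after CAF-1 depletion and at most 222.4 CPM elsewhere, with Fcer1a at or near 0 throughout. Cpa3 and Mcpt8 made up most of it and were the 2 of 4 tested markers called higher in CAF-1 OFF cells, whereas Ms4a2 was not called (11.2 and 5.54 CPM against 9.61 and 4.02 CPM uninduced) and Mcpt8 was called lower in HOXA9 OFF cells (-2.26 on the log2 scale). The sum of 7 erythroid and megakaryocyte markers was 203.0 and 227.9 CPM in CAF-1 OFF and 149.9 and 135.9 CPM in HOXA9 OFF cells, against 30.1 to 33.9 CPM in the control libraries, with Hbb-b1 at or near 0. Itga2b made up most of the HOXA9 OFF sum (114.2 and 93.3 CPM), and of 6 tested markers 4 were called in CAF-1 OFF and 3 in HOXA9 OFF cells, all higher, with Klf1 not called in either. Of 5 dendritic cell markers the sum was 6.24 and 27.3 CPM in HOXA9 OFF cells and at most 3.12 CPM elsewhere, with Cd209a at 0 throughout, and that of 5 B cell markers was 5.32 and 9.62 CPM in HOXA9 OFF cells and 92.0 to 137.1 CPM elsewhere. Most of the B cell sum outside HOXA9 OFF was Ebf1, at 88.1 and 106.7 CPM in uninduced and 1.14 and 1.19 CPM in HOXA9 OFF cells, whereas Cd79a was called higher in the latter, by 1.46 on the log2 scale (edgeR FDR 0.0158). Mpo, Ms4a2, Ms4a3 and the markers at or near 0 were named after their values were seen. The part of these markers in the levels of the 10 factors was not tested.

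**Figure D4:**
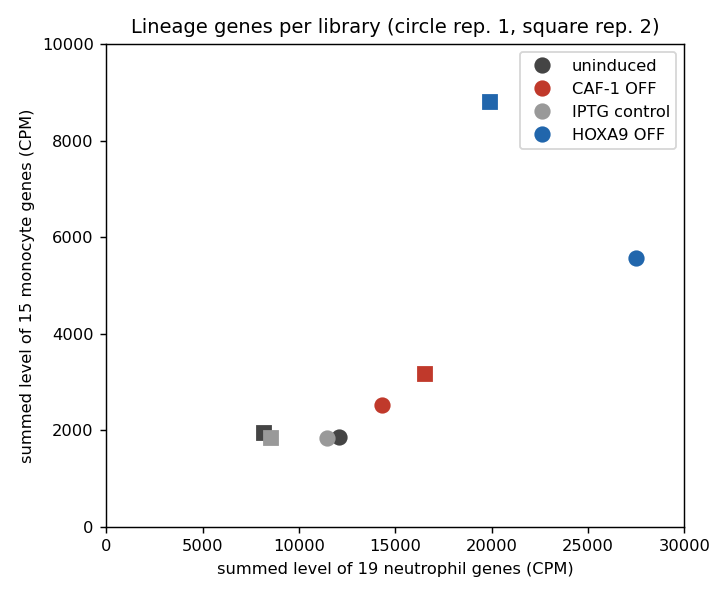
Summed level of 19 neutrophil genes (horizontal) against that of 15 monocyte and macrophage genes (vertical) in each library, in CPM; circles are replicate 1 and squares replicate 2. HOXA9 OFF replicate 1 lies further along the neutrophil axis and replicate 2 further along the monocyte axis. Both CAF-1 OFF libraries lie beyond the 4 control libraries on both axes. Outside HOXA9 OFF, Mpo, Ctsg and Prtn3 made up most of the neutrophil sum.

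Relatives of the 10 factors in the same gene families were examined next. Of 25 listed, 16 were tested. In HOXA9 OFF cells 13 were higher and 2 lower (median log2 fold change 1.82), and in CAF-1 OFF cells 5 were higher and 0 lower (median 0.46). Klf2, a Krüppel-like factor of quiescent lymphocytes and monocytes, rose from 0.623 and 0.770 CPM in uninduced cells to 59.3 and 47.4 CPM without estradiol (a log2 difference of 6.24, edgeR FDR 4.02e-05). Irf7, a regulator of type I interferon genes, rose in HOXA9 OFF (5.79, edgeR FDR 1.55e-05) and in CAF-1 OFF cells (3.18, edgeR FDR 0.00224). The 2 relatives that fell in HOXA9 OFF cells, named after their values were seen, were Klf9 (-0.78) and Nr4a2 (-1.44, edgeR FDR 0.0173), the latter a paralog of Nr4a1.

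Gfi1b, the paralog of Gfi1 that acts in erythroid and megakaryocyte cells, had 0.757 and 0.385 CPM for uninduced, 0.707 and 0.184 for IPTG-treated control, 18.1 and 35.2 for CAF-1 OFF, and 5.32 and 3.17 for HOXA9 OFF libraries. The groups did not overlap apart from the control groups. Gfi1b rose by 5.53 ± 0.61 on the log2 scale after CAF-1 depletion (edgeR FDR 0.00324) and by 2.88 ± 0.59 in HOXA9 OFF cells (edgeR FDR 0.0039). It thus rose in HOXA9 OFF cells, where Gfi1 fell.

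Of the partners of these factors, 17 of 18 were tested. In HOXA9 OFF cells 5 were higher and 3 lower (median log2 fold change -0.14), and in CAF-1 OFF cells 2 were higher, Runx1 and Tcf4 (median -0.00095 for the list). Runx1, which acts upstream of Spi1 in blood formation, rose by 0.81 ± 0.11 in CAF-1 OFF (edgeR FDR 0.00543) and by 1.71 ± 0.11 in HOXA9 OFF cells (edgeR FDR 1.95e-05). Tcf4, an E protein that ID proteins bind, rose by 0.89 ± 0.26 after CAF-1 depletion (edgeR FDR 0.0486 against uninduced cells, and 0.0575, not called, against IPTG-treated control cells) and fell by 1.31 in HOXA9 OFF cells (edgeR FDR 0.00397). Jun, a partner of PU.1 at monocyte genes, rose by 3.14 ± 0.48 in HOXA9 OFF cells (edgeR FDR 0.000909).

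Among 18 tested immediate early genes, the class to which Egr1, Egr2 and Nr4a1 belong, 15 were higher and 2 lower in HOXA9 OFF cells (median log2 fold change 2.61), with Zfp36 at 4.63 and Atf3 at 4.17. In CAF-1 OFF cells 1 was called, Klf6 (0.81, edgeR FDR 0.0486), and the median was 0.42. Of these genes 15 were higher in replicate 2 of HOXA9 OFF, the library in which Egr1 and Egr2 were also higher. Of 10 tested genes of BMP and TGF-beta signalling, the pathway known to induce Id genes, CAF-1 OFF cells had 3 higher and 1 lower (median 0.24), and HOXA9 OFF cells had 4 higher and 3 lower (median 0.48). Bmpr2, a BMP receptor, rose by 1.24 ± 0.24 after CAF-1 depletion (edgeR FDR 0.0146), and Smad7, an inhibitor of the pathway, rose by 1.05 ± 0.22 (edgeR FDR 0.0174). Id3 itself was below the filter, with at most 9 reads in a library, and is named here as a paralog of Id1 and Id2.

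Genes known from monocytes and neutrophils were counted as well. Of 15 tested monocyte and macrophage genes, 14 were called higher in HOXA9 OFF cells (median log2 fold change 3.96). In CAF-1 OFF cells 6 were called higher (median 1.38), and none was called lower in either group. Ccr2, the gene not called in HOXA9 OFF cells, had a log2 difference of -0.92 there (edgeR FDR 0.147). Csf1r, the M-CSF receptor and a target of PU.1, was at 5.07 and 3.72 CPM in uninduced, 11.5 and 17.0 CPM in CAF-1 OFF and 465.3 and 853.3 CPM in HOXA9 OFF cells. Of 19 neutrophil genes, 15 were higher and 1 lower in HOXA9 OFF (median 6.59), and 12 were higher in CAF-1 OFF cells (median 2.21). Mmp8, a neutrophil collagenase, was at 58.3 and 43.4 CPM in uninduced and 1091 and 1937 CPM in CAF-1 OFF libraries. Not every gene of this list rose so far. Ltf had 0.312 and 0.428 CPM uninduced, 0.474 and 0.523 CPM after CAF-1 depletion, and 1440 and 969 CPM without estradiol. Mmp9 had 1.78 and 1.11 CPM uninduced, 1.95 and 3.50 CPM after CAF-1 depletion, and 309 and 185 CPM without estradiol. The shares of all genes called stand above, and no list was tested against other genes. The CAF-1 OFF counts against uninduced cells moved when 1 library was left out: to 1 of the monocyte and macrophage genes and 2 of the relatives without uninduced replicate 1 or CAF-1 OFF replicate 2, to 6 of the neutrophil genes without uninduced replicate 1, and to 0 of the partners, immediate early and BMP and TGF-beta genes without uninduced replicate 1 or CAF-1 OFF replicate 2. The relatives were also 2 without uninduced replicate 2, and the immediate early genes 0 without either IPTG-treated control replicate and at most 5 in any of these fits. The BMP and TGF-beta genes called in HOXA9 OFF cells became 4 without uninduced replicate 2.

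**Figure D5:**
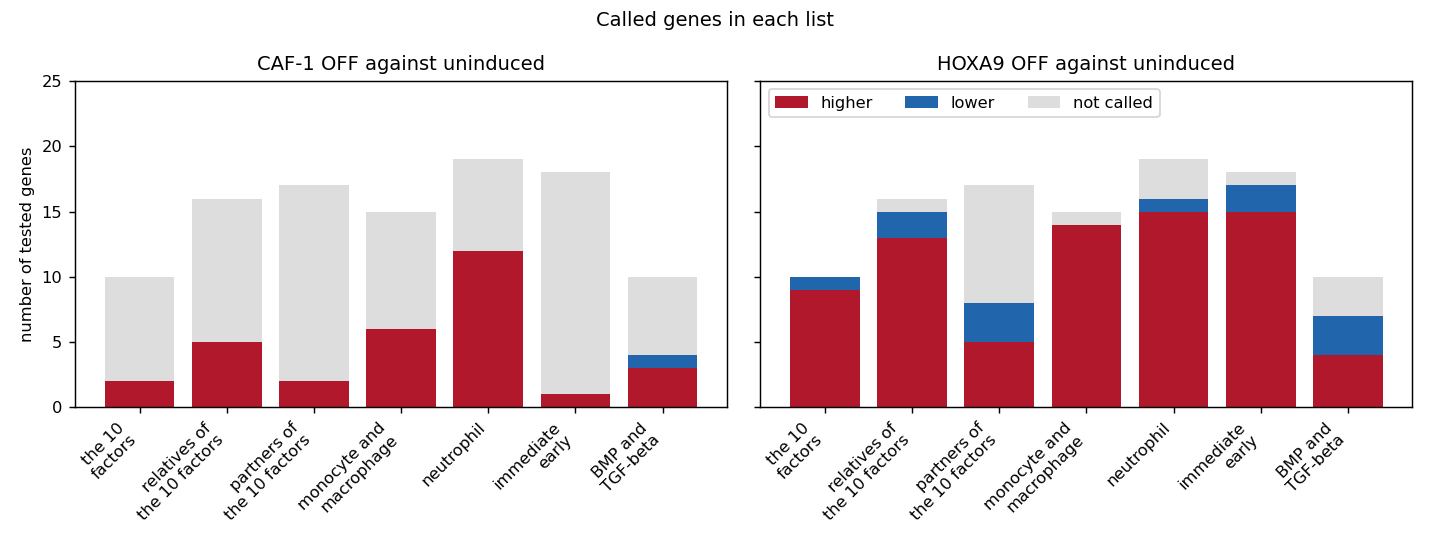
Number of tested genes called higher (red), called lower (blue) or not called (grey) in CAF-1 OFF or HOXA9 OFF against uninduced cells, for the 10 factors and 6 lists of related genes; of the tested genes shown, Jun, Klf2, Klf6 and Nr4a2 stand in more than 1 list. In HOXA9 OFF cells 9 of the 10 factors and 13 of 16 relatives were higher, and in CAF-1 OFF cells 2 and 5 were.

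For each factor the 2 tested genes whose pattern across the 8 libraries was most like it were found by the Pearson correlation of log2 CPM, among genes whose mean log2 CPM reached 2. The libraries share their groups, so these values are descriptions without a test. For Spi1 they were Cebpd (r = 0.9986) and Cdadc1 (0.9985), and Cebpd, a C/EBP factor of myeloid cells, had 146.1 and 104.1 CPM in HOXA9 OFF against 12.3 to 24.6 CPM in the other libraries. For Gfi1 they were Espl1 (0.9928), the separase of mitosis, and Spint2 (0.9919). For Irf8 they were Itgb7 (0.9946) and Slc4a2 (0.9901), and Itgb7, an integrin chain, shared the gap between the CAF-1 OFF replicates at 19.2 and 44.5 CPM. For Id1 they were Kat2b (0.9964), a histone acetyltransferase, and Fam126b (0.9922).

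The remaining factors had their closest genes at similar values. For Irf4 these were Gak (0.9974) and Myd88 (0.9973), an adaptor of Toll-like receptors. For Klf4 they were Rbak (0.9945) and Prkch (0.9932). Egr1 was closest to BC006779 (0.9945) and BC096441 (0.9941), Egr2 to Mcoln1 (0.9946) and Arhgap25 (0.9924), and Nr4a1 to Lbh (0.9833) and Stau1 (0.9782). For Id2 they were Klf3 (0.9975), a Krüppel-like repressor, and Cd300lb (0.9947), an activating receptor of myeloid cells. Klf3 had 39.7 and 41.3 CPM in HOXA9 OFF cells and 6.64 to 12.1 CPM in the other libraries.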

How the data were processed

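RNA was extracted from mouse Lys-GFP-ER-HoxA9 cells and sequenced after a directional library preparation, 8 libraries in 4 groups. The authors aligned reads to mm9 with STAR and counted them with HTSeq. They deposited raw counts of reads for each gene symbol, 1 file per library, neither normalised nor pooled. The 5 HTSeq summary counts were left out of library sizes. The strand setting and the annotation are not given in the sources used here.

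The differential test was the quasi-likelihood test (glmQLFTest) of edgeR 4.0.16 under R 4.3.3, in a single model of 8 libraries with group as the only term, after filterByExpr and TMM scaling. P-values of 13080 genes were adjusted by Benjamini-Hochberg, and a call needed an FDR under 0.05 and at least 1.5-fold. CPM uses TMM-scaled library sizes. Groups of 2 libraries give little precision of their own, so the spread is shared between genes, with a biological coefficient of variation of 18.9%. Total counts were 14044284 to 22423837 per library. Standard errors were derived from the F statistics.

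The members and gene lists were chosen with earlier results of these data known. Named genes were the 10 factors, Chaf1b, up to 4 called genes of largest absolute change per list and comparison, and the 2 genes most like each factor in pattern. Klf9, Nr4a2, Id3, Mpo, Ctsg, Prtn3, Ccr2, Ms4a2, Ms4a3 and Klf1 fall outside this rule and were named after their values were seen. The same holds for the overlapping genes A430072P03Rik and Gm17507 and the lineage markers at or near 0.

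The code was tested on simulated counts: for CAF-1 OFF against uninduced cells, with 12152 genes tested, 74.0% of genes changed by 2 and 53.8% of those changed by 1 on the log2 scale were recovered, and 8 unchanged genes were called. DESeq2 1.42.0 and other scalings, filters, thresholds and subsets of libraries were run as alternatives. Gene positions and exon lengths are from GENCODE vM1 in mm9, and promoter windows are from RefSeq (GRCm38). For 9 factors each stretch of 50 bases in the longest coding transcript was unique to the gene, and Gfi1 had no protein-coding transcript in that annotation. Figures were drawn with matplotlib 3.10.9 in Python 3.11.15.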

Additional observations from a re-analysis of the deposited data

How the results depend on the processing

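Over 17 alternatives, between 9 and 10 factors were called in HOXA9 OFF against uninduced cells, 0 in IPTG-treated control against uninduced cells, and 7 to 9 in CAF-1 OFF against HOXA9 OFF cells. The 9 arose where a mean of at least 50 counts left fewer genes tested, and each factor tested in HOXA9 OFF against uninduced cells kept its call under the alternatives run. Where a library is left out, the remaining one of its group is assumed to vary like the other groups. The counts in CAF-1 OFF cells moved. Against uninduced cells the 2 calls became 4 with no filter on low counts, 4 by DESeq2 and 1 at an FDR of 0.01 with 2-fold, and leaving out 1 library at a time gave 1 to 3. Against IPTG-treated control cells they became 4 with no filter, 4 by DESeq2 and 1 at the stricter threshold, and leaving out 1 library gave 1 to 4. The share of all genes called against uninduced cells was 9.48% with no filter, 14.7% by DESeq2 and 2.78% at the stricter threshold. Against IPTG-treated control cells it was 8.61%, 13.6% and 2.16%. The cause of these moves was not tested.

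Same-numbered libraries share only a number in the labels. Their deviations from the group means correlated at -0.04 for CAF-1 OFF with uninduced, 0.30 for HOXA9 OFF with uninduced, 0.48 for IPTG-treated control with uninduced, -0.02 for CAF-1 OFF with IPTG-treated control and 0.08 for CAF-1 OFF with HOXA9 OFF libraries. With a replicate block the factors called were 3 in CAF-1 OFF against uninduced (Gfi1, Id1 and Id2), 4 in CAF-1 OFF against IPTG-treated control (Gfi1, Id1 and Id2 higher, Klf4 lower), 10 in HOXA9 OFF against uninduced, 9 in CAF-1 OFF against HOXA9 OFF and 0 in IPTG-treated control against uninduced cells.

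Of 745 alternative fold changes of the factors, 21 changed direction, all of genes that were not called. The replicate block turned Gfi1 in IPTG-treated control against uninduced cells to 0.0016. Leaving out 1 library moved the other log2 differences in that comparison over -0.043 to 0.043 for Gfi1, -1.08 to 0.85 for Irf4, -0.29 to 1.62 for Klf4, -0.14 to 1.04 for Nr4a1, -0.11 to 0.28 for Spi1, -0.15 to 0.27 for Irf8, -0.19 to 0.25 for Id1 and -0.74 to 0.31 for Id2. In CAF-1 OFF against uninduced cells the ranges were -1.19 to 0.59 for Klf4 and -1.77 to 0.31 for Nr4a1, and against IPTG-treated control cells -0.14 to 0.21 for Egr2 and -0.074 to 1.71 for Irf4. Irf4, Klf4, Egr2 and Nr4a1 had the fewest reads per library outside HOXA9 OFF cells, and the part of depth in their spread was not tested.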
